A study of Mus musculus with 30 samples.

Results

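The genes described are those of the cardiac calcium cycle: Atp2a2, Pln, Ryr2, Slc8a1, Casq1 and Casq2. Every probe set that the platform annotation assigns to 1 of these 6 symbols was taken, which gave 7 probe sets of the 12422 on the array that are not controls. They cover 5 of the 6 genes: Slc8a1 has 3 probe sets, Atp2a2, Ryr2, Casq1 and Casq2 have 1 each, and Pln, the gene of the SERCA inhibitor phospholamban, has none and was not analysed here. The rule reads gene symbols only, but the 6 genes were chosen with earlier results of these data known.

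Left ventricles came from C57BL/6 mice aged 2 months, and expression was read on 30 Affymetrix MG_U74Av2 arrays, each hybridized with the pooled RNA of 2 animals. The mice were wild type or carried a genotype labelled HCM, letters that in cardiac genetics usually stand for hypertrophic cardiomyopathy, and they ate a soy-based or a casein-based diet. The labels name no mutation, transgene or promoter behind the HCM genotype and no feature of the diets beyond their protein base, which limits what the groups can stand for. Males and females were kept apart, which gives 8 groups of 4 arrays, apart from soy-fed HCM males and soy-fed HCM females with 3 arrays each. The comparisons the design sets up are HCM against wild type, casein against soy, females against males, and whether the HCM difference depends on diet or sex.

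In a heart muscle cell each beat begins with calcium entry through the L-type channel of the surface membrane, which opens the ryanodine receptor, the product of Ryr2, so that calcium leaves the sarcoplasmic reticulum. Relaxation follows as SERCA2, the product of Atp2a2, pumps calcium back under the restraint of phospholamban and as the sodium-calcium exchanger, the product of Slc8a1, carries calcium out of the cell. Inside the reticulum calsequestrin binds the stored calcium: Casq2 encodes the cardiac form, and Casq1 the form best known from fast skeletal muscle. Levels of these genes are commonly followed in hypertrophied and failing hearts.

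Upstream sequences were read from RefSeq (GRCm38.p6) for the 4 measured genes that have an entry in its promoter table. They are shown because Ryr2 and Slc8a1 differed between HCM and wild type on the soy diet, Casq1 on the casein diet, and Casq2 between the diets. Each is the 250 bases before the annotated start in the gene's own direction, with matches to the searched motifs in capitals. Atp2a2 is named only.
Ryr2 (chr13:12106946-12107195, minus strand): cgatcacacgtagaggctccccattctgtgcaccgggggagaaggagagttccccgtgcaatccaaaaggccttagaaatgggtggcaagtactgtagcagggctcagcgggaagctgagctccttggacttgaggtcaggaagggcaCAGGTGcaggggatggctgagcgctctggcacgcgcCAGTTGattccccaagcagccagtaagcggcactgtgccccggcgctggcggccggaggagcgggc
Slc8a1 (chr17:81738388-81738637, minus strand): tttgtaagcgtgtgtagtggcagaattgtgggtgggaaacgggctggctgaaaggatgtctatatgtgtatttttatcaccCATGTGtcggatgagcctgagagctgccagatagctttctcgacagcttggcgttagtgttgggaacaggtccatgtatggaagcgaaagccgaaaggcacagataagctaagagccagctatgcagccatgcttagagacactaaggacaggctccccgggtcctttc
Casq1 (chr1:172219896-172220145, minus strand): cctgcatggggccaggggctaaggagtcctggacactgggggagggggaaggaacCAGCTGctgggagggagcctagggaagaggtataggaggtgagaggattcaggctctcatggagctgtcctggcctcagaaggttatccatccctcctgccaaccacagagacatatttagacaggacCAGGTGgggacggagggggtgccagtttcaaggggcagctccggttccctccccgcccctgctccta
Casq2 (chr3:102086165-102086414, plus strand): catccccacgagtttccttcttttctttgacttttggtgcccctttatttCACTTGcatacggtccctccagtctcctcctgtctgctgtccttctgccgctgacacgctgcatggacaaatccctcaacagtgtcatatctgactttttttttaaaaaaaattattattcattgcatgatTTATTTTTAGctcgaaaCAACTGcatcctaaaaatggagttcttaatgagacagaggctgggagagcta

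5 motifs found in promoters of muscle genes were searched on both strands: the E-box (CANNTG), the M-CAT element (CATTCC), the TATA box (TATAAA), the MEF2 site and the CArG box. Ryr2 held the E-boxes CAGGTG and CAGTTG, beginning 102 and 66 bases before the start, and Slc8a1 held CATGTG at 169. In Casq1 they were CAGCTG at 195 and CAGGTG at 67. Casq2 held CACTTG at 200 and CAACTG at 52, and it was the only promoter of the 4 with a MEF2 match, TTATTTTTAG, which begins 69 bases before the start and overlaps neither E-box. No match to the M-CAT element, the CArG box or the TATA box was found in these 4 windows. An E-box is common: 66.2% of the 32851 RefSeq promoters of the same length hold at least 1, against 2.92% for MEF2, 12.6% for M-CAT, 1.47% for the CArG box and 12.4% for the TATA box. Guanine and cytosine made up 63.2% of the Ryr2 window, 61.6% of Casq1, 50.4% of Slc8a1 and 41.6% of Casq2. The matches describe the letters only, and no binding was measured here.

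All values below are log2 expression as deposited. A difference of 1 is a doubling, differences are given with their standard error (SE), and an adjusted p is that of limma's moderated test with Benjamini-Hochberg adjustment over all 12422 probe sets, called below 0.05. Because probe sets differ in how well they bind, no probe set's level is set against another's. The tissue is bulk ventricle, so fewer cells of a type and less RNA per cell cannot be told apart, and p-values measure the spread between pooled samples, not between single animals.

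Facts of the arrays touch several results. Replicate 2 of the soy-fed wild-type males stood apart, with a mean correlation to its group of 0.963 against 0.984 to 0.997 on the other arrays, and several results, among them the HCM differences of Ryr2, 99524_at and Atp2a2 on soy, are also given without it. The 8 casein-fed wild-type arrays divided by the hybridization controls BioD and BioC into replicates 1 and 2 of both sexes (set A, BioD minus BioC 1.38 to 1.74) and replicates 3 and 4 (set B, 0.64 to 0.8). A fit with the array set (each diet and genotype, casein wild type divided in 2) as a random block is called the array-set block. Outside casein wild type a set is a whole diet and genotype, which the group coefficients already absorb. The block's correlation can thus be learned only from the split of the casein wild-type arrays, and it is applied to all sets. The top of the arrays' range also differed by diet: the 99th percentile lay at 10.64 to 11.07 on soy wild-type arrays, 10.96 to 11.11 on soy HCM arrays, 11.14 to 11.35 on casein wild-type arrays and 11.44 to 11.53 on casein HCM arrays. The labels give no batch, and any handling shared by a diet and genotype cannot be told apart from the groups. Markers of ventricular muscle were bright: of the 11 measured of 12 listed, 11 on casein and 10 on soy averaged above the arrays' median, with Myl2, the ventricular regulatory light chain, at 13.39.

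**Figure D1:**
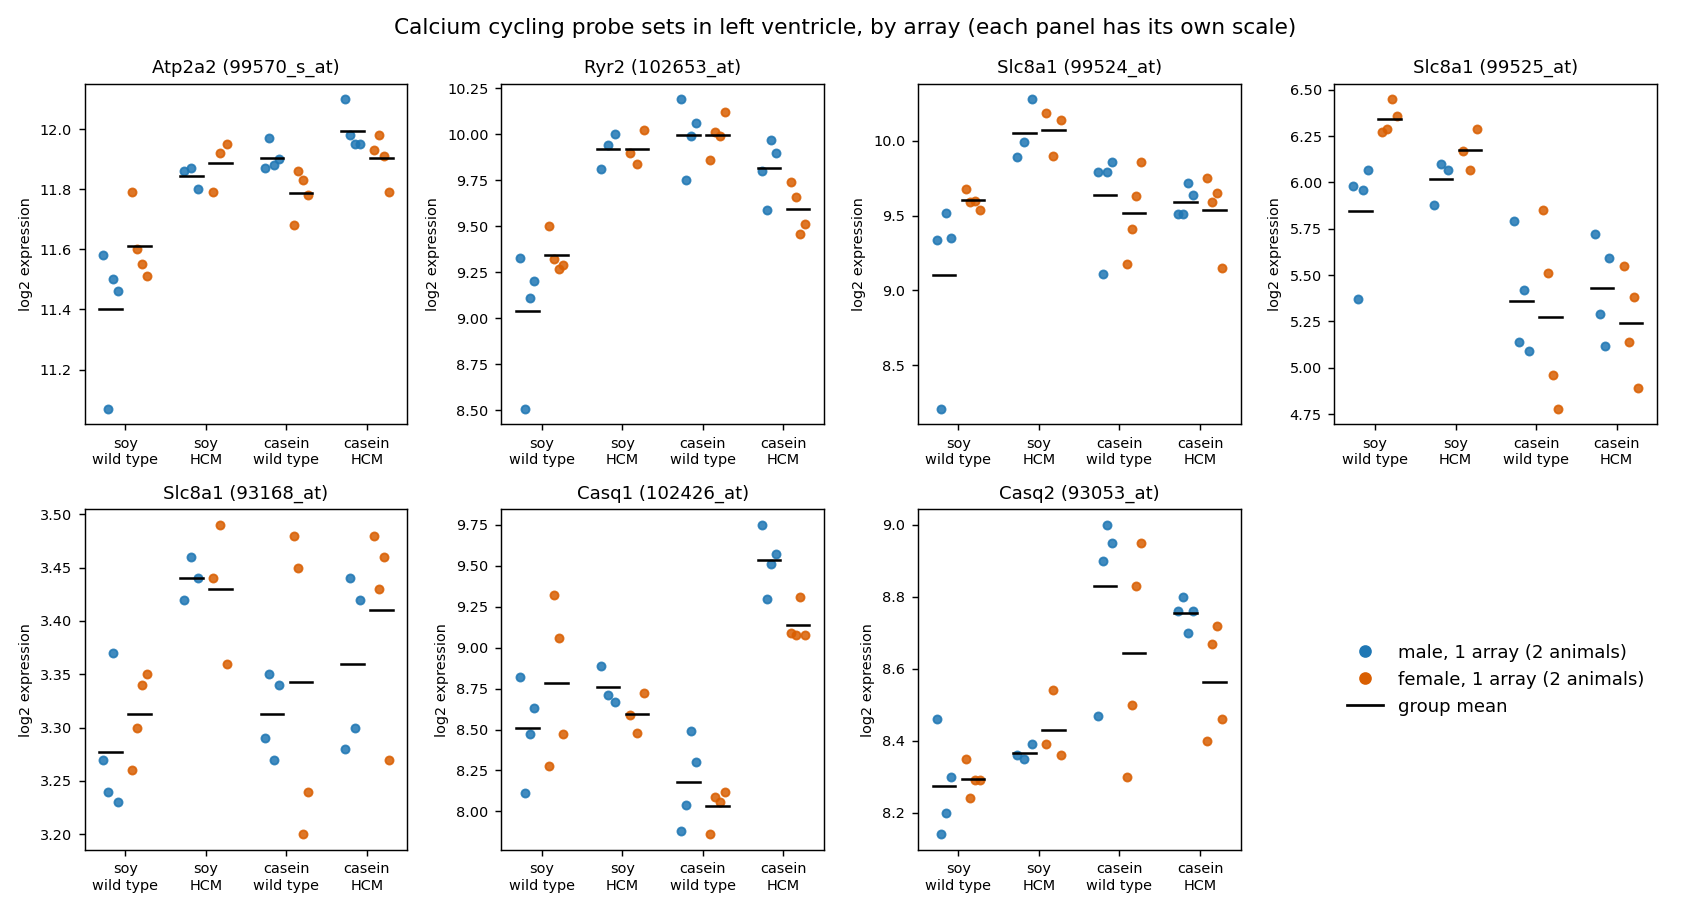
Log2 expression (vertical axes, each panel with its own scale) of the 7 calcium cycling probe sets on the 30 arrays by diet and genotype; points are arrays of 2 pooled animals, males in blue and females in orange, and bars are group means. The soy wild-type arrays are the lowest group for Ryr2 and Atp2a2, the casein HCM arrays the highest for Casq1, and Slc8a1 (99525_at) is lower on casein in both genotypes.

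On the soy diet the release channel, the pump and, by its brightest probe set, the exchanger were higher in HCM than in wild-type ventricles. The exchanger's probe set 99525_at was not called (0.00, adjusted p = 0.993). Ryr2 was 1.66-fold higher (0.73 ± 0.09, adjusted p = 5.05e-06), Slc8a1 by its probe set 99524_at 1.64-fold higher (0.71 ± 0.15, adjusted p = 0.0014), and Atp2a2 1.28-fold higher (0.36 ± 0.06, adjusted p = 0.000225). Neither calsequestrin passed the test on soy. With the dim Slc8a1 probe set 93168_at, 4 of the 7 probe sets were higher and none lower, against 24.7% of all probe sets called in this comparison and 12.3% called higher. The members' median difference was 0.14, against -0.01 over all probe sets.

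Ryr2, the channel that releases calcium from the reticulum (probe set 102653_at), had the largest difference of the 7 on soy. In soy-fed wild-type males replicates 1 to 4 measured 9.33, 8.51, 9.11 and 9.20, and the 3 soy-fed HCM males measured 9.81, 9.94 and 10.00. In females the wild-type arrays gave 9.50, 9.32, 9.27 and 9.29, and the HCM arrays 9.90, 9.84 and 10.02. The lowest of the 6 HCM arrays lay above the highest of the 8 wild-type arrays, in males by means of 9.92 ± 0.09 (SD, n = 3) against 9.04 ± 0.37 (SD, n = 4) and in females by 9.92 ± 0.09 (SD, n = 3) against 9.35 ± 0.11 (SD, n = 4). Among all probe sets this difference ranked 80th in size. Without replicate 2 of the soy-fed wild-type males, the lowest Ryr2 array of the series, it was 0.64 (adjusted p = 3.77e-07).

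Slc8a1 encodes the exchanger that trades calcium for sodium across the surface membrane. Its probe set 99524_at gave 9.34, 8.21, 9.52 and 9.35 in soy-fed wild-type males and 9.89, 9.99 and 10.28 in HCM males. The female wild-type arrays were tight at 9.68, 9.59, 9.60 and 9.54, and the female HCM arrays gave 10.19, 9.90 and 10.14. All 6 HCM arrays again lay above all 8 wild-type arrays. The male difference of 0.95 leans on replicate 2 of the wild-type males at 8.21, and without that array the difference over both sexes was 0.56 (adjusted p = 0.000659), with 0.47 in females alone.

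The other Slc8a1 probe sets did not follow. 99525_at differed by 0.00 ± 0.14 on soy (adjusted p = 0.993, 95% interval -0.29 to 0.30), and its wild-type and HCM arrays overlapped in both sexes. 93168_at was higher by 0.14 ± 0.05 (adjusted p = 0.0391), but all its values lie between 3.20 and 3.49, its mean is among the lowest 0.676% of probe sets, and the call was lost with quantile normalization added (0.08, adjusted p = 0.146), with the array-set block (adjusted p = 0.339) and (adjusted p of 0.05 to 0.0938) when any of 10 soy arrays was left out: replicates 2 or 4 of the wild-type males, any of the HCM males, replicates 1, 2 or 3 of the wild-type females, or replicates 1 or 2 of the HCM females. The 3 probe sets were designed from different Slc8a1 transcripts in the annotation (AF004666 for 99524_at, U70033 for 99525_at and AI852629 for 93168_at), and which part of the gene each reads was not examined here.

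Atp2a2, the SERCA2 pump of the reticulum (99570_s_at), measured 11.58, 11.07, 11.5 and 11.46 in soy-fed wild-type males and 11.86, 11.87 and 11.80 in HCM males. In females the wild-type arrays read 11.79, 11.60, 11.55 and 11.51, and the HCM arrays 11.79, 11.92 and 11.95. The groups did not overlap in males, and in females the highest wild-type and the lowest HCM array met at 11.79 without crossing. The rise was smaller than that of Ryr2 and remained without replicate 2 of the wild-type males (0.30, adjusted p = 0.000113).

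The calsequestrins gave no called difference on soy. Casq1 differed by 0.03 ± 0.13 (adjusted p = 0.888, 95% interval -0.23 to 0.29), with a mean difference of 0.25 in males and -0.19 in females and overlapping groups in both. Casq2 differed by 0.12 ± 0.09 (adjusted p = 0.34, 95% interval -0.06 to 0.29).

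Other markers moved with these rises. 8 of 11 ventricular cardiomyocyte markers were also higher in soy-fed HCM than in soy-fed wild-type ventricles and none lower, with a median difference of 0.21, including Tnnt2, cardiac troponin T (0.37), Actc1, cardiac actin (0.33), and Myl2 (0.28). Their summed level ran from 15.41 to 15.79 on the soy wild-type arrays and from 15.86 to 15.98 on the soy HCM arrays, with no overlap. The part of this shift in the calcium cycling results was not tested. Of 8 endothelial markers 3 were higher and none lower, of 8 fibroblast markers 1 was higher and 3 lower, and of 6 macrophage markers none was called. Among all probe sets 12.3% were called higher and 12.3% lower on soy. Of 7 atrial markers Myl7 (-1.32) and Myl4 (-0.32) were lower and none higher, and of 20 skeletal muscle markers 6 were lower, among them Myl1 (-0.52), and 1 higher. Of 6 smooth muscle markers only Rgs5, a pericyte gene, was called, and it was higher. Atp2a2, at 0.36, lay within the range of those markers, and Ryr2 and 99524_at, at 0.73 and 0.71, above each of the 11.

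The soy calls in part rest on how array sets are treated. With the array-set block Ryr2 (adjusted p = 0.00648) and Atp2a2 (adjusted p = 0.0467) stayed below the threshold and Slc8a1 99524_at did not (adjusted p = 0.0949). Each soy set is a whole diet and genotype, so the block cannot show that a soy result is free of set effects.

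On the casein diet a different member moved. Casq1, the skeletal form of the reticulum's calcium store protein, was 2.35-fold higher in HCM than in wild-type ventricles (1.23 ± 0.12, adjusted p = 2.49e-09). Ryr2 was 1.23-fold lower (-0.29 ± 0.09, adjusted p = 0.00653). Atp2a2 (0.10 ± 0.06, adjusted p = 0.157), Casq2 (-0.08 ± 0.08, adjusted p = 0.44) and the 3 Slc8a1 probe sets (-0.02 to 0.06) did not pass the test. The dim 93168_at among them was called higher with quantile normalization added (0.14, adjusted p = 0.00385) and without set A (0.12, adjusted p = 0.0499). Thus 1 of 7 was higher and 1 lower, where 49% of all probe sets were called, 25% higher and 24% lower, so the count of members is no larger than the background.

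Casq1 (102426_at) read 7.88, 8.04, 8.49 and 8.30 in casein-fed wild-type males and 9.75, 9.30, 9.51 and 9.57 in casein-fed HCM males. In females it read 7.86, 8.09, 8.06 and 8.12 against 9.09, 9.08, 9.31 and 9.08. The lowest HCM array lay above the highest wild-type array in both sexes, and the mean differences were 1.35 in males and 1.11 in females. Only 35 of the 12422 probe sets differed more between these groups. The call remained with the array-set block (adjusted p = 6.96e-06).

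Ryr2 on casein measured 10.19, 9.75, 9.99 and 10.06 in wild-type males and 9.80, 9.59, 9.97 and 9.90 in HCM males, and these groups overlapped. In females it measured 9.86, 10.01, 9.99 and 10.12 in wild type and 9.74, 9.66, 9.46 and 9.51 in HCM, with no overlap. The mean difference was -0.18 in males and -0.40 in females. The call was lost with the array-set block (adjusted p = 0.0961) and without the set B arrays (-0.25, adjusted p = 0.0777).

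The cardiac calsequestrin, Casq2 (93053_at), differed between the sets of casein-fed wild-type arrays. In males replicates 1 to 4 read 8.47, 8.90, 9.0 and 8.95, and in females 8.30, 8.50, 8.83 and 8.95, which gives 8.54 ± 0.25 (SD, n = 4) in set A and 8.93 ± 0.07 (SD, n = 4) in set B. The casein-fed HCM arrays lay at 8.76, 8.80, 8.70 and 8.76 in males and 8.40, 8.67, 8.72 and 8.46 in females. Against set B alone Casq2 was lower in HCM (-0.27, adjusted p = 0.00136), and against set A alone it differed by 0.12 with no call, so its HCM difference on casein turns with the wild-type arrays used.

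Skeletal and atrial muscle markers were followed beside Casq1, since that gene is chiefly known from skeletal fibres. Of 20 skeletal muscle markers 5 were higher in casein-fed HCM ventricles: Myl1, a light chain of fast fibres (1.27), Tnnt1, slow troponin T (0.77), Ryr1, the skeletal ryanodine receptor (0.63), Tnnt3, fast troponin T (0.34), and Cacna1s, the skeletal L-type channel (0.30). Another 4 were lower: Myod1 (-0.52), Pvalb (-0.28), Myh2 (-0.27) and Tnnc2 (-0.19). Of all probe sets 25% were called higher and 24% lower on casein, so these counts are near the background. The median difference of the list was 0.01. The fast myosin genes Myh1 (0.00) and Myh4 (-0.12) did not pass the test, and 10 of the 20 averaged below the arrays' median on the casein HCM arrays.

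The summed level of the skeletal list was 11.83 to 12.14 on the casein HCM arrays, 11.52 to 11.67 on casein wild type, 11.71 to 12.02 on soy wild type and 11.56 to 11.70 on soy HCM. Of 7 atrial markers 4 were higher in casein-fed HCM and none lower: Myl7, the atrial light chain (1.58), Nppa, the natriuretic peptide gene (0.98), Myl4 (0.39) and Dkk3 (0.22). Their sum ran from 10.20 to 11.69 on the casein HCM arrays and from 9.45 to 10.12 on casein wild type. Of 6 smooth muscle markers 5 were higher, and the fibroblast, endothelial and macrophage lists moved both ways. Of 11 ventricular muscle markers 5 were higher and 2 lower, Mybpc3 (-0.30) and Ckmt2 (-0.20), with a list median of 0.12. The sum of that list was 16.14 to 16.25 on the casein HCM arrays and 15.95 to 16.13 on casein wild type. No value on this scale is a true 0, and the part of these markers in the Casq1 difference was not tested.

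**Figure D2:**
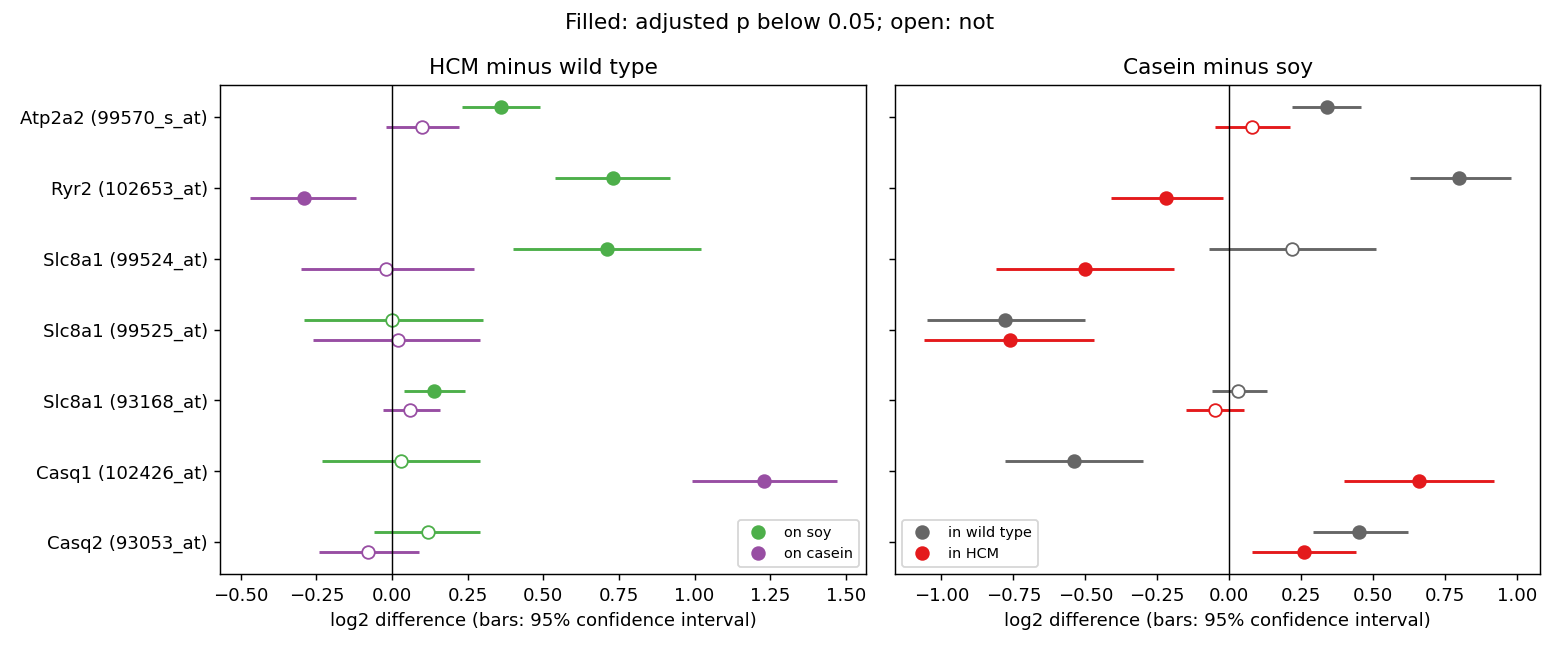
Log2 differences of the 7 probe sets (horizontal axes; bars are 95% confidence intervals) between HCM and wild type on each diet (left) and between casein and soy in each genotype (right); filled points have an adjusted p below 0.05. Ryr2, Atp2a2 and Slc8a1 (99524_at) are higher in HCM on soy and Casq1 on casein, and Slc8a1 (99525_at) stands at -0.78 (wild type) and -0.76 (HCM) between the diets.

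The HCM difference depended on diet for 4 of the 7 probe sets, by the test of the difference itself. It was more positive on casein in 1 and more negative in 3. Of all probe sets 45.2% were called, 23.9% more positive and 21.3% more negative. For Casq1 the HCM difference was larger on casein than on soy by 1.20 ± 0.17 (adjusted p = 3.23e-06). The same value, casein minus soy, was -1.02 ± 0.13 for Ryr2 (adjusted p = 3.77e-07), -0.72 ± 0.21 for Slc8a1 99524_at (adjusted p = 0.00569) and -0.26 ± 0.09 for Atp2a2 (adjusted p = 0.0169). Casq2 (-0.19, 95% interval -0.43 to 0.05), 99525_at (0.01, -0.39 to 0.42) and 93168_at (-0.08, -0.22 to 0.06) were not called. The members' median was -0.19 against 0.02 over all probe sets.

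With the array-set block Casq1 (adjusted p = 0.00165) and Ryr2 (adjusted p = 0.000505) stayed called, whereas 99524_at (adjusted p = 0.0951) and Atp2a2 (adjusted p = 0.173) did not. Without set B 99524_at gave -0.52 (adjusted p = 0.0684). Casq2 was called without set A (-0.39, adjusted p = 0.000778) and stood at 0.00 without set B.

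**Figure D3:**
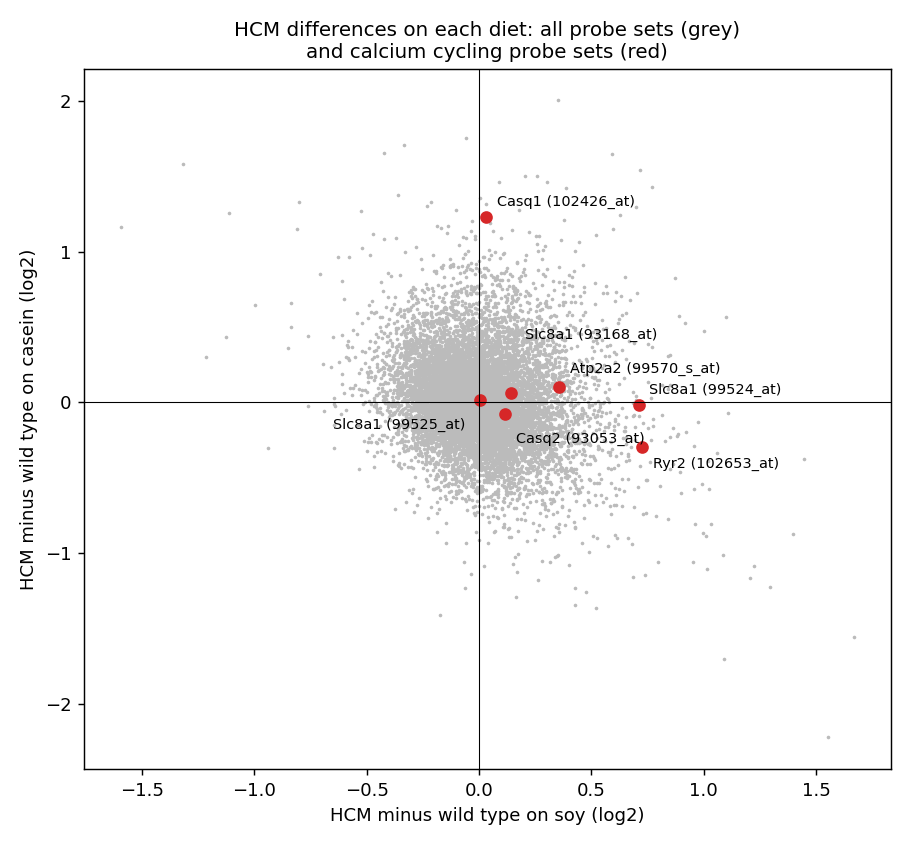
HCM minus wild type in log2 on soy (horizontal) against the same on casein (vertical) for all 12422 probe sets in grey and the 7 calcium cycling probe sets in red. Casq1 lies near 0 on soy and at 1.23 on casein, and Ryr2 and Slc8a1 (99524_at) lie above 0.7 on soy and at -0.29 and -0.02 on casein.

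Averaged over both diets and sexes, 5 of the 7 probe sets were higher in HCM and none lower, against 32.8% of all probe sets called and 17.2% called higher. Casq1 rose by 0.63 ± 0.09 (adjusted p = 3.95e-06), 99524_at by 0.35 ± 0.10 (adjusted p = 0.0114), Atp2a2 by 0.23 ± 0.04 (adjusted p = 0.000192), Ryr2 by 0.22 ± 0.06 (adjusted p = 0.0104) and 93168_at by 0.10 ± 0.03 (adjusted p = 0.024). Casq2 (0.02) and 99525_at (0.01) were not called. These averages join unlike differences: the Ryr2 value is the mean of 0.73 on soy and -0.29 on casein, and the Casq1 value that of 0.03 and 1.23. With the array-set block only Casq1 (adjusted p = 0.00267) and Atp2a2 (adjusted p = 0.0268) stayed called, and 99524_at also lost its call without set A (0.24, adjusted p = 0.0787), as 93168_at did without set B (0.07, adjusted p = 0.127).

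Diet shifted most members in wild-type ventricles. From soy to casein Ryr2 was 1.75-fold higher (0.80 ± 0.09, adjusted p = 2.54e-08), Casq2 1.37-fold higher (0.45 ± 0.08, adjusted p = 3.94e-05) and Atp2a2 1.27-fold higher (0.34 ± 0.06, adjusted p = 2.84e-05, but 0.03 and adjusted p = 0.63 once quantile normalization was added). Casq1 was 1.45-fold lower (-0.54 ± 0.12, adjusted p = 0.00047), and Slc8a1 99525_at 1.71-fold lower (-0.78 ± 0.13, adjusted p = 2.89e-05). That makes 3 higher and 2 lower of 7, where 46% of all probe sets were called, 20.3% higher and 25.6% lower. This comparison uses the same soy-fed wild-type arrays as the HCM comparison on soy, so the rises of Ryr2 and Atp2a2 in both are read against the same 8 arrays.

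For Ryr2 the 8 soy-fed wild-type arrays (8.51 to 9.50, median 9.28) and the 8 casein-fed wild-type arrays (9.75 to 10.19, median 10.00) did not overlap, and set A (9.95 ± 0.19, SD, n = 4) and set B (10.04 ± 0.06, SD, n = 4) overlapped. Casq2 ran from 8.14 to 8.46 on soy and from 8.30 to 9.0 on casein, with set A overlapping the soy arrays and set B above them, and the diet difference was 0.65 (adjusted p = 3.11e-08) without set A and 0.26 (adjusted p = 0.011) without set B. Casq1 in soy-fed wild type was widely spread, at 8.28, 9.32, 9.06 and 8.47 in females and 8.82, 8.11, 8.47 and 8.63 in males.

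The probe set 99525_at for Slc8a1 was called by diet in both genotypes and by genotype on neither diet. On soy it read 5.98, 5.37, 5.96 and 6.07 in wild-type males, 5.88, 6.1 and 6.07 in HCM males, 6.27, 6.29, 6.45 and 6.36 in wild-type females and 6.17, 6.07 and 6.29 in HCM females. On casein it read 5.79, 5.14, 5.42 and 5.09 in wild-type males and 5.85, 5.51, 4.96 and 4.78 in wild-type females. The casein-fed HCM arrays gave 5.72, 5.29, 5.12 and 5.59 in males and 5.55, 5.14, 5.38 and 4.89 in females. HCM arrays of the diets did not overlap, and wild-type arrays overlapped through replicate 2 of the soy-fed males. The HCM difference of 99525_at on casein was 0.27 without set A and -0.24 without set B, with no call in either. Its wild-type diet difference was -1.03 (adjusted p = 6.81e-07) without set A and -0.52 (adjusted p = 0.00511) without set B. In the same wild-type comparison 99524_at, for the same gene, stood at 0.22 ± 0.14 (adjusted p = 0.202). That value followed the arrays used: it was 0.43 (adjusted p = 0.0297) without set A, 0.02 (adjusted p = 0.952) without set B and 0.07 (adjusted p = 0.582) without replicate 2 of the soy-fed wild-type males.

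In HCM ventricles 5 of 7 probe sets differed by diet, 2 higher and 3 lower on casein, where 61.1% of all probe sets did, 29.8% higher and 31.3% lower, a share near the background. Casq1 was 1.58-fold higher on casein (0.66 ± 0.13, adjusted p = 6.2e-05), the opposite direction to wild type, and the soy-fed HCM arrays, at 8.89, 8.71 and 8.67 in males and 8.59, 8.48 and 8.72 in females, all lay below the casein-fed HCM arrays. Casq2 was 1.20-fold higher (0.26 ± 0.09, adjusted p = 0.0109). Slc8a1 was lower by both brighter probe sets, 99525_at (-0.76 ± 0.14, adjusted p = 5.15e-05) and 99524_at (-0.50 ± 0.15, adjusted p = 0.00564), and the soy and casein HCM arrays of each did not overlap. Atp2a2 differed by 0.08 ± 0.06 (adjusted p = 0.255), but by -0.25 (adjusted p = 6.16e-05) with quantile normalization added.

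Ryr2 in HCM stood at the threshold, at -0.22 ± 0.09 from soy to casein (adjusted p = 0.0472). Leaving out any of 16 arrays lifted the adjusted p to between 0.0502 and 0.108: in males, soy wild-type replicate 3, casein wild-type replicates 3 and 4, soy HCM replicates 2 and 3, and casein HCM replicates 1 and 2. In females they were soy wild-type replicates 2, 3 and 4, casein wild-type replicates 2 and 3, soy HCM replicates 1 and 3, and casein HCM replicates 3 and 4. Centring the arrays on their medians also ended the call (-0.16, adjusted p = 0.143), whereas quantile normalization enlarged the difference (-0.47, adjusted p = 1.12e-05). With the array-set block the calls of Ryr2 (adjusted p = 0.247), 99524_at (adjusted p = 0.0825) and Casq2 (adjusted p = 0.0876) were lost, and that of Casq2 also with quantile normalization added (0.17, adjusted p = 0.0606).

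Over both genotypes the diet comparison called 4 of 7 probe sets, where 62.3% of all were called, 29% higher and 33.3% lower, so the members' share is again near the background. Casq2 was higher on casein (0.36 ± 0.06, adjusted p = 7.14e-06), as were Ryr2 (0.29 ± 0.06, adjusted p = 0.000248) and Atp2a2 (0.21 ± 0.04, adjusted p = 0.000113), and 99525_at was lower (-0.77 ± 0.10, adjusted p = 1.32e-07). With quantile normalization added, which evens out the arrays' upper range, the Atp2a2 difference turned to -0.11 (adjusted p = 0.00461) and the Ryr2 difference fell to 0.08 (adjusted p = 0.172), whereas the sign of the HCM differences on soy did not turn (Atp2a2 0.28, Ryr2 0.71, 99524_at 0.71). 99524_at (-0.14, adjusted p = 0.244) was called lower with that normalization (-0.35, adjusted p = 0.00207) and without replicate 2 of the soy-fed wild-type males (-0.21, adjusted p = 0.0137).

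Ventricular muscle markers moved with diet as well: 10 of 11 were higher on casein over both genotypes and none lower, and all 11 in wild type. Of all probe sets 29% were called higher over both genotypes and 20.3% in wild type. Most of these markers lie near the top of the arrays' range, which was itself higher on casein. How these markers differ with quantile normalization added was not examined. Their summed level was 15.95 to 16.13 on casein wild-type arrays and 16.14 to 16.25 on casein HCM arrays, above the soy arrays of the same genotype. In HCM 9 of 11 ventricular muscle markers were higher on casein and 1 lower. Of 8 endothelial markers 5 were higher and 2 lower over both genotypes, 5 higher and 0 lower in wild type, and 3 higher and 3 lower in HCM. Of 6 smooth muscle markers 5 were higher over both genotypes and 2 in wild type, and none lower. The fibroblast and macrophage lists moved both ways in each of these comparisons. Atrial and skeletal counts are given beside Casq1. In wild type, where Casq1 was lower on casein, 5 of 7 atrial markers were lower and 0 higher, and of 20 skeletal markers 9 were lower and 1 higher. Of all probe sets 25.6% were called lower and 20.3% higher in that comparison. In HCM, where Casq1 was higher on casein, 3 of 7 atrial markers were higher and 0 lower, 5 of 6 smooth muscle markers were higher (list median 0.58), and of 20 skeletal markers 8 were higher and 7 lower (list median -0.03). Among all probe sets 29.8% were called higher and 31.3% lower in HCM. RNA controls also differed: the 3' minus 5' signal of Gapdh was -0.13 to 0.03 on soy wild type, -0.16 to -0.03 on soy HCM, 0.05 to 0.33 on casein wild type and -0.11 to 0.12 on casein HCM, and that of actin was lowest on casein HCM, at -0.50 to 0.17. Their part in the diet differences was not tested.

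Sex made no called difference in any member. Of the 7 probe sets none was called between females and males, and none had an unadjusted p below 0.05, where 0.233% of all probe sets were called by limma, 0.153% higher and 0.0805% lower in females. The widest intervals were those of 99524_at (0.09, 95% interval -0.13 to 0.30) and 99525_at (0.10, -0.11 to 0.30), and Casq1 stood at -0.11 (-0.28 to 0.07). The HCM difference was not shown to differ by sex: 0 of 7 members and 0 of all probe sets were called by limma, with 0 members and 503 of all probe sets at an unadjusted p below 0.05, and the values nearest to a call were Ryr2 at -0.26 (unadjusted p = 0.0513) and Casq1 at -0.34 (unadjusted p = 0.0616). The diet difference between the sexes gave 0 calls by limma as well, among members and among all probe sets (0%), 1755 of which had an unadjusted p below 0.05. In 3 members the unadjusted p was below 0.05, each with the difference from soy to casein more negative or less positive in females. These were Atp2a2 at -0.23 (limma, adjusted p = 0.276), 99525_at at -0.47 (adjusted p = 0.302) and Ryr2 at -0.27 (adjusted p = 0.343).

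Ordered by group mean, Ryr2 was highest in casein-fed wild type (10.00 in males and in females) and lowest in soy-fed wild-type males (9.04) and females (9.35), with the HCM groups between, on soy (9.92 in both sexes) above casein (9.81 and 9.59). Atp2a2 ran from 11.40 in soy-fed wild-type males to 11.99 in casein-fed HCM males, and Casq2 from 8.28 in soy-fed wild-type males to 8.83 in casein-fed wild-type males, with all 4 casein groups above all 4 soy groups. For 99524_at the soy-fed HCM groups were on top (10.08 in females, 10.05 in males), and the step from there to casein-fed wild-type males (9.64) was the only one between neighbours in the order of any of the 7 probe sets whose arrays did not overlap. 99525_at had all 4 soy groups (5.85 to 6.34) above all 4 casein groups (5.24 to 5.43). Casq1 ran from 8.03 in casein-fed wild-type females to 9.53 in casein-fed HCM males. 93168_at spanned group means of only 3.28 to 3.44.

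Other calcium handling genes were described by a list of 75 genes grouped by role, of which 46 were on the array with 60 probe sets. On soy 18 of the 60 were higher in HCM and 9 lower, with a median of 0.04, and on casein 12 were higher and 19 lower, with a median of -0.03. The share called was 45% on soy and 51.7% on casein, beside 24.7% and 49% of all probe sets. By the test of the difference the HCM difference was more positive on casein than on soy in 8 and more negative in 17. That is 41.7% of the 60 beside 45.2% of all probe sets.

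The voltage-gated channel subunits, through which calcium enters, had 4 probe sets higher and 1 lower of 7 in HCM on soy. That is 71.4% called, beside 24.7% of all probe sets, and on casein 28.6% were called, beside 49%. Cacna1c, the pore of the cardiac L-type channel, was higher on soy (0.34 ± 0.08, adjusted p = 0.00264) and lower on casein (-0.31 ± 0.07, adjusted p = 0.00113), a difference between the diets of -0.65 (adjusted p = 2.21e-05). Cacna2d1, its auxiliary alpha-2-delta subunit, was higher on soy (0.92 ± 0.20, adjusted p = 0.00179) and stood at -0.19 on casein (adjusted p = 0.409), with a tested difference of -1.11 (adjusted p = 0.00178). Ryr2 and Cacna1c thus differed in the same directions on each diet.

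The adrenergic and protein kinase A pathway raises calcium flux in response to adrenaline. Its 8 probe sets, of 6 genes, had 5 higher and none lower on soy, and 2 higher and 4 lower on casein. Called were thus 62.5% on soy and 75% on casein, beside 24.7% and 49% of all probe sets. Adcy6, an adenylyl cyclase of heart muscle, was higher on soy (0.35, adjusted p = 0.0148) and lower on casein (-0.73 ± 0.09, adjusted p = 4.11e-07). Prkacb, a catalytic subunit of protein kinase A, was lower on casein (-0.36 ± 0.08, adjusted p = 0.000292) and higher on soy (0.30, adjusted p = 0.00995).

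Calmodulin, its kinases and calcineurin, which read the calcium signal, had 4 of 9 probe sets higher on soy and none lower, and 2 higher and 4 lower on casein. These are shares of 44.4% on soy and 66.7% on casein, beside 24.7% and 49% of all probe sets. Ppp3ca, a catalytic subunit of calcineurin, was higher on soy (0.61 ± 0.14, adjusted p = 0.00265) and lower on casein (-0.35, adjusted p = 0.0265). Ppp3cb, another catalytic subunit, was higher on soy (0.32, adjusted p = 0.00317) and on casein (0.17, adjusted p = 0.0482). Rcan1, a calcineurin regulator that is also a calcineurin target, was higher on both diets (0.61, adjusted p = 0.0267, and 0.73, adjusted p = 0.00169). Camk2d, the main cardiac form of the calmodulin kinase, was higher averaged over both (0.29, adjusted p = 0.0057), but was not called on casein alone (0.20, adjusted p = 0.118). Ppp1cb, a catalytic subunit of protein phosphatase 1, which dephosphorylates phospholamban, was higher on soy (0.60 ± 0.20, adjusted p = 0.0287) and on casein (1.15 ± 0.18, adjusted p = 8.61e-06), and its tested difference between diets, 0.55, was not called (adjusted p = 0.094).

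Among the pumps and their inhibitors, Sln, which encodes the SERCA inhibitor sarcolipin, differed by -0.06 on soy (adjusted p = 0.663) and -0.02 on casein (adjusted p = 0.835). Atp2a1, the pump of fast skeletal muscle, gave probe sets that disagree on casein: 162223_f_at was higher (0.59 ± 0.06, adjusted p = 1.2e-08) and 98126_s_at was not called (0.03, adjusted p = 0.677), while both were lower on soy (-0.21, adjusted p = 0.022, and -0.18, adjusted p = 0.0423). Ryr1 was higher on casein (0.63 ± 0.08, adjusted p = 1.65e-07) and stood at -0.13 on soy (adjusted p = 0.269). Stim1, the sensor of store calcium that opens entry channels, was lower over both diets (-0.29, adjusted p = 0.000114).

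Proteins of the release unit and the store had 3 of 9 probe sets lower on soy, all of them for S100a1, and none higher. On casein 3 of the 9 were lower (Fkbp1b, Hrc and Jph3) and 2 higher (Sri and 1 of S100a1). These shares, 33.3% on soy and 55.6% on casein, lie near the 24.7% and 49% of all probe sets. Hrc, which encodes the histidine-rich calcium-binding protein of the reticulum, was lower in HCM on casein (-0.43 ± 0.07, adjusted p = 1.84e-05) and stood at 0.13 on soy (adjusted p = 0.226). Fkbp1b, the protein that steadies the ryanodine receptor, was lower in HCM averaged over both diets (-0.21, adjusted p = 0.000194), but was not called on soy alone (-0.11, adjusted p = 0.153). Its level was lower on casein than on soy (-0.56, adjusted p = 1.79e-12). The 3 probe sets of S100a1, a calcium sensor that acts on SERCA2 and the ryanodine receptor, were all lower on soy (-0.55, -0.44 and -0.25) but disagree on casein, where the brightest, 95453_f_at, was higher (0.57, adjusted p = 3.21e-08). Pvalb, the buffer parvalbumin of fast fibres, was lower by its probe set 96719_i_at (-0.31, adjusted p = 8.22e-06) and not by 96720_f_at on either diet.

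**Figure D4:**
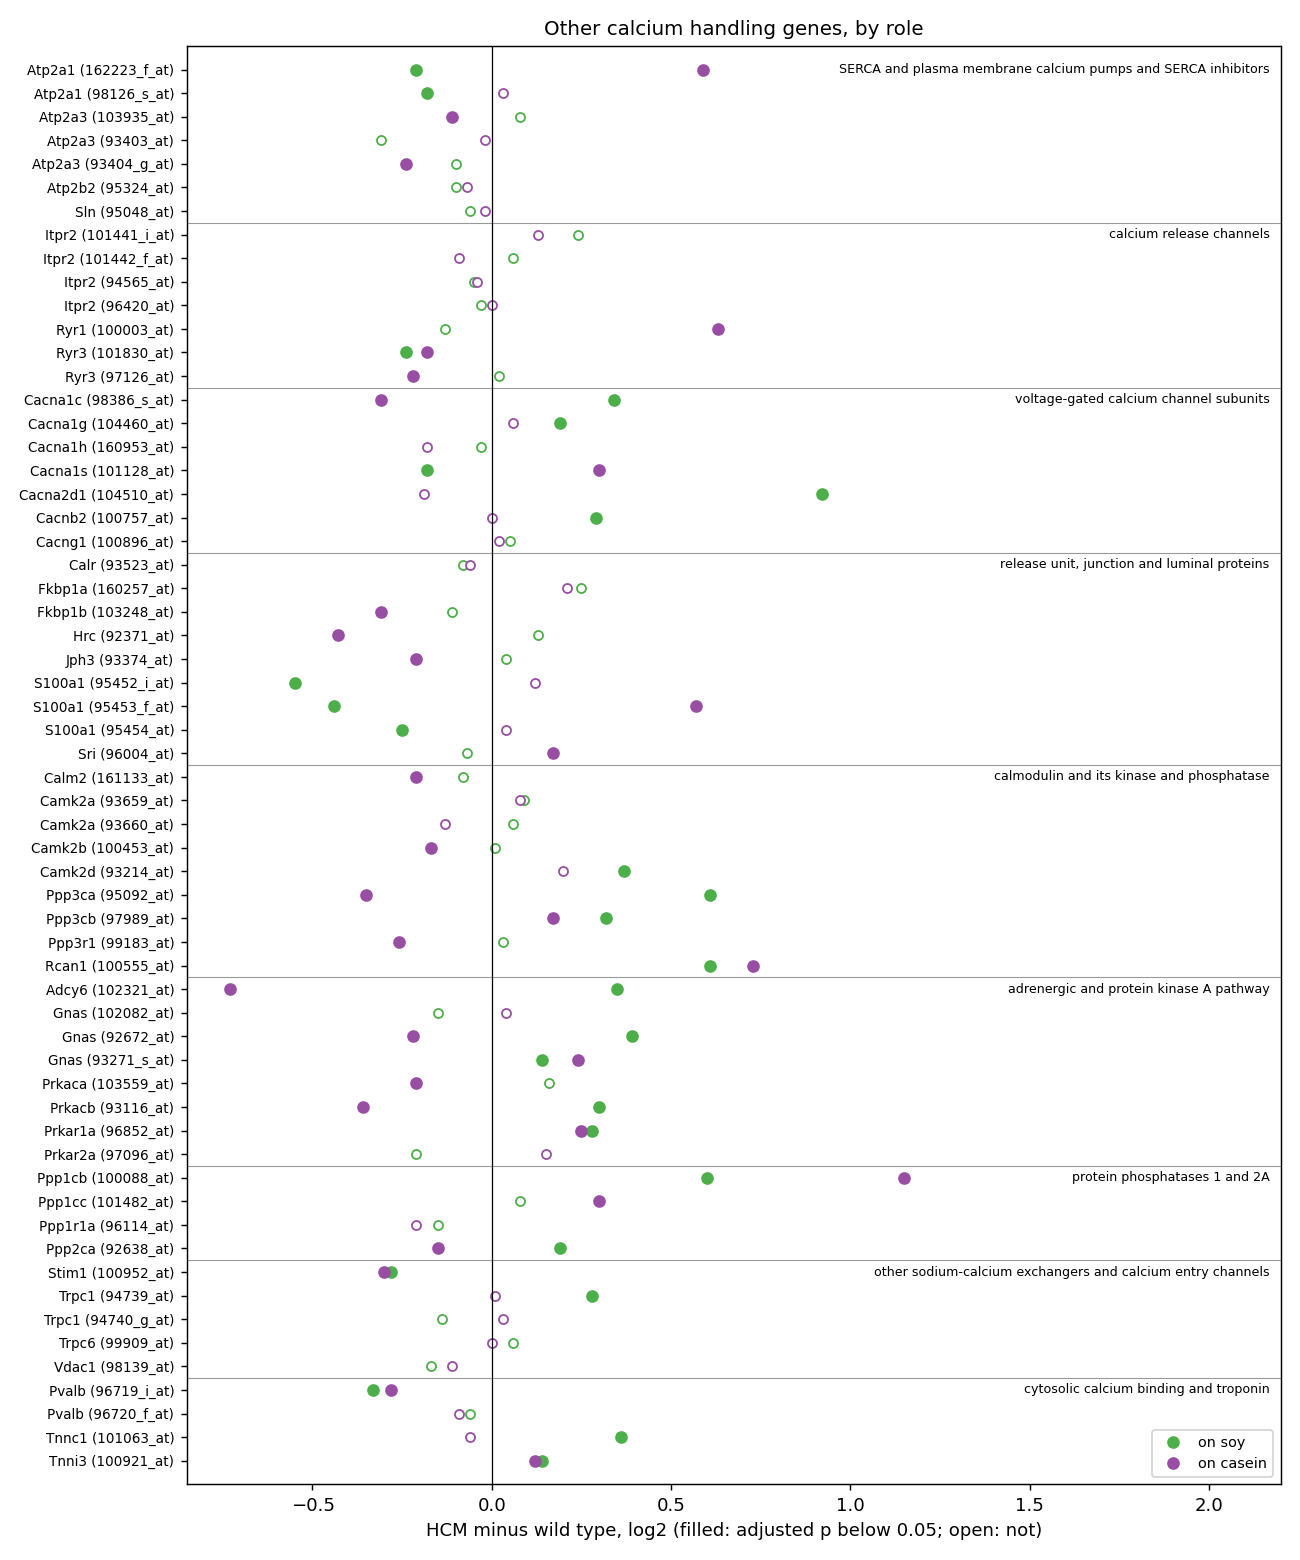
HCM minus wild type in log2 (horizontal axis) on soy (green) and casein (purple) for the 60 probe sets of the other calcium handling genes, grouped by role; filled points have an adjusted p below 0.05. Ppp1cb is higher on both diets, and Cacna1c, Ppp3ca, Adcy6 and Prkacb are higher on soy and lower on casein.

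The probe sets whose levels ran most like each member over the 30 arrays are given as a description, since arrays share groups and array sets. Atp2a2 ran with genes of the heart's contractile filament: Actc1 (r = 0.91), Tnnt2 (0.90) and Tnnc1 (0.90), and within groups the r was 0.69, 0.76 and 0.73. Ryr2 ran most closely with Macf1, a large cytoskeletal linker (0.96, and 0.84 within groups), then Nbr1 (0.90, 0.70) and Copb2 (0.89, 0.56). Slc8a1 99524_at ran with Rdx (0.92), Pabpc4 (0.91) and Itgb1 (0.90), and within groups at 0.90, 0.95 and 0.86. For Casq1 the nearest were Anxa7 (0.87), Pik3ca (0.85) and Babam2 (0.84), with within-group values of 0.38, 0.46 and 0.66. Casq2 ran with Mrpl2 (0.90), Selenbp1 (0.88) and Tubg1 (0.88), at 0.78, 0.81 and 0.68 within groups. Without replicate 2 of the soy-fed wild-type males the within-group r was lower for most of them. It was 0.57, 0.60 and 0.54 for the 3 genes named with Atp2a2, 0.80, 0.51 and 0.36 for those with Ryr2, and 0.82, 0.91 and 0.78 for those with 99524_at. For Casq1 it was 0.31, 0.44 and 0.61, and for Casq2 0.78, 0.81 and 0.79.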

How the data were processed

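RNA from 30 pooled samples of mouse left ventricle was measured on Affymetrix MG_U74Av2 arrays. The authors deposited log2 values, 1 per probe set and array. Per the submitters' processing notes they used RMA and Affymetrix Expression Console, in versions not given in the sources used here. In RMA it is usual to include quantile normalization, yet the arrays' upper percentiles differ. No scanner files were analysed here, so there are no detection calls.

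Samples were grouped by sex, diet and genotype. limma 3.58.1 (R 4.3.3) fitted 1 coefficient per group to all 12422 probe sets that are not controls, with lmFit and eBayes (degrees of freedom: 22 residual, 5.86 prior), two-sided, with Benjamini-Hochberg adjustment within each comparison. The fit was tested on simulated data with independent noise for each array and no array sets. That test thus does not cover errors shared by arrays of a set. Probe sets are named by the platform annotation: 10833 have 1 symbol, 396 several and 1193 none. No array values were identical (0 of the pairs, correlations 0.93 to 0.997).

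All 7 member probe sets are named. Of other calcium handling genes, up to 4 of the highest and lowest past the threshold per comparison are named. Ppp1cb, Sln, Atp2a1, Ryr1 and Cacna1c are added, and Jph3 and Ppp3cb are given beside genes of their role. The members and all lists were chosen with earlier results of these data known. Alternatives were 1 probe set per gene, a filter on dim probe sets, added quantile normalization, median centring, a replicate block, array weights, an intensity trend, the array set as a random block, other sample sets and leaving out each array. Precision is limited by the 3 or 4 arrays of a group.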

Additional observations from a re-analysis of the deposited data

Results flagged for a closer look

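In 4 of 42 checked sets of values (a probe set in a group of 4 arrays) 1 array stood apart from the others, where chance gives about 1 in 20. For Slc8a1 99524_at, replicate 2 of the soy-fed wild-type males read 8.21, with the nearest array at 9.34. In casein-fed wild-type males replicate 2 of the same probe set read 9.11, with the nearest at 9.79. For Slc8a1 99525_at, replicate 2 of the soy-fed wild-type males read 5.37, with the nearest at 5.96. For Casq1, replicate 3 of the casein-fed HCM females read 9.31, with the nearest at 9.09, and this array lay above the other three, away from the wild-type values.

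The HCM difference was tested to differ between the diets in 4 probe sets, given as the difference on casein minus that on soy. It was -0.26 for Atp2a2, -1.02 for Ryr2, -0.72 for Slc8a1 99524_at and 1.20 for Casq1.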

How the results depend on the processing

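Over 49 results of single members and 42 alternative settings, 1915 of 1974 values kept their side of the threshold, 49 lost the call and 8 gained one. Another 2 turned in direction with a call in the main or the alternative fit. Both were Atp2a2 with quantile normalization added: -0.11 for diet and -0.25 for diet in HCM. Turns between values without a call were not counted. The HCM difference of Casq2 on casein, for instance, went from -0.08 to 0.12 without set B. With a random block for the array set (consensus correlation 0.179) the count of members called was 2 in HCM against wild type (9.61% of all probe sets called), 2 on soy (2.76%), 1 on casein (27.3%), 2 for diet in HCM (41.2%) and 2 for the dependence of the HCM difference on diet (21.1%). The HCM count on casein was 4 without set A of the casein wild-type arrays and 1 without set B.

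Leaving out 1 array at a time gave counts of 5 to 5 for HCM, 3 to 4 on soy, 2 to 2 on casein, 4 to 5 for diet, 5 to 5 for diet in wild type, 4 to 5 for diet in HCM, 4 to 4 for the dependence on diet, and 0 to 0 for sex and both interactions with sex. Replicate numbers were not shown to pair the arrays: of 99 same-numbered pairs 21 correlated above 0.1 (range -0.55 to 0.6), and 9 of 30 arrays matched their own number best. This description cannot exclude shared handling, and in casein-fed wild type the replicate number does follow sets A and B. The replicate block left 5 members called in HCM against wild type and 3 on soy, where 93168_at lost its call (0.13, adjusted p = 0.0695). Centring on medians moved the split of diet calls over all probe sets to 4714 higher and 3083 lower, from 3600 and 4133, and in wild type to 3609 and 2111, from 2522 and 3186. Signal limits 93168_at, whose values lie at the bottom of the arrays' range, and 3 or 4 arrays a group limit every interval.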
